A study of Mus musculus with 57 samples.

Results

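Cubn, Lrp2, Amn, Dab2, Lrpap1 and Fabp3 encode parts of an uptake system that the outer cells of the embryo are known for. These 6 of the 55450 genes in the count table were chosen for that function, with earlier results of these data known. Cells of the visceral yolk sac, like those of the kidney tubule, take up proteins, vitamins and lipids through large receptors on their apical membrane. Cubilin (Cubn) binds ligands such as vitamin B12 with its intrinsic factor and has no membrane span of its own, so that it is carried by the membrane protein amnionless (Amn). Megalin (Lrp2) is a giant member of the LDL receptor family. Lrpap1 is the chaperone that keeps such receptors free of ligands in the endoplasmic reticulum, and Dab2 is the adaptor that links their tails to clathrin. Fabp3 is a cytosolic fatty acid carrier and stands for the handling of lipid inside the cell.

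The libraries came from a mouse embryonic stem cell line, Sox1-EGFP/FoxA2mCherry, in which EGFP reports Sox1, a neuroectoderm factor, and mCherry is fused to FOXA2, an endoderm factor. The line is a single clone chosen for the match of mCherry to antibody staining, and every group carries both reporters. Cells left SerumLIF at day 0 (D0) for N2B27 medium with 1 uM retinoic acid, and at D2, D4 and D6 fluorescence sorting gave 4 populations named by their reporters, Sox1-FoxA2+, Sox1+FoxA2-, double positive Sox1+FoxA2+ and double negative Sox1-FoxA2-. The D0 libraries come from the Sox1-FoxA2- gate alone. Progeny libraries (D4 progeny, D6 progeny) hold the descendants of 3 of these populations, all but the Sox1-FoxA2- cells, that were sorted at D2 and grown on, without a new sort, in retinoic acid with a serum medium in place of N2B27, so that medium and sorting cannot be told apart between progeny and sorted cells. In all, 19 conditions had 3 replicates each, 57 libraries. The study's methods call the libraries of a condition biological replicates, while the labels do not say whether they came from separate cultures, and p-values measure the spread between these libraries.

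Total counts ran from 10170632 to 81845651 per library. Foxa2 stood at 1646 to 3241 normalized counts in the D2 Sox1-FoxA2+ libraries and at 0 to 107 in those of D2 Sox1-FoxA2- cells, but in the libraries labelled D6 Sox1+FoxA2+ it was 0, 728 and 76.6 in replicates 1, 2 and 3. Of these only replicate 2 lay above the D6 Sox1+FoxA2- libraries, which held 20.3 to 131, so that Foxa2 RNA did not bear out the label in replicates 1 and 3. The gate was set on mCherry fluorescence, and RNA does not test it directly. At D4 too, Sox1+FoxA2+ replicate 1 held 214, below the 251 of Sox1+FoxA2- replicate 3. Sox1 is listed at 0 in all 57 libraries and checks no label here. Of 10 visceral endoderm markers 5 to 7 were above 0 in each D6 Sox1-FoxA2+ library, among them Apob at 297 to 564 and Cited1 at 1085 to 1332 normalized counts, but the secreted proteins that define this tissue, Ttr, Afp and Apoa4, were at 0 in all 3. The summed level of the 10 parietal endoderm markers ran from 958700 to 2037000 there and from 20500 to 27930 in D6 Sox1+FoxA2- cells. The members are therefore named here by their function and not by a tissue.

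In GRCm38 with GENCODE M21, Cubn (ENSMUSG00000026726.10) lies on the minus strand of chromosome 2 from 13276338 to 13491813, and 2.46% of its exon bases also belong to Gm13270. Lrp2 (ENSMUSG00000027070.14) lies on the same strand of chromosome 2 from 69424340 to 69586065 and shares no exon base. Amn (ENSMUSG00000021278.7) lies on the plus strand of chromosome 12 from 111271095 to 111276426 and shares none either. Dab2 (ENSMUSG00000022150.16) is on the plus strand of chromosome 15 from 6299788 to 6440712, with 2.87% shared with Gm18888. Lrpap1 (ENSMUSG00000029103.16) is on the minus strand of chromosome 5 from 35091501 to 35105766, with none shared. Fabp3 (ENSMUSG00000028773.8) is on the plus strand of chromosome 4 from 130308595 to 130315463, and 19.6% of its exon bases are shared with Gm10570 and Zcchc17. Reads in shared bases can be lost to these genes, so that Fabp3 may be undercounted most. Its pseudogene Fabp3-ps1 is listed at 0 in all 57 libraries.

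Below are the bases before the RefSeq start sites (GRCm38.p6) of Cubn and Dab2, whose levels followed each other, and of Amn, whose levels did not follow them. The Dab2 run belongs to the first of its listed starts. Capitals mark a GATA motif.
Cubn, chr2:13491877-13492126, minus strand: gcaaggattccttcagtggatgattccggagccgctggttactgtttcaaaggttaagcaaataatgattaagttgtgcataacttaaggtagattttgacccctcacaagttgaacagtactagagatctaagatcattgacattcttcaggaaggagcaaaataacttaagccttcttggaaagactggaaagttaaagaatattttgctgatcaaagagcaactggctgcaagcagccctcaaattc
Dab2, chr15:6299539-6299787, plus strand: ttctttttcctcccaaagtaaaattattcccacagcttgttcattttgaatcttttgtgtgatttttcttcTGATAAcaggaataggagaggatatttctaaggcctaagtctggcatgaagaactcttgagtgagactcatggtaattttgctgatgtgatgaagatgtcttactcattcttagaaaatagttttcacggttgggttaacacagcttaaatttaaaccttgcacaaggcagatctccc
Amn, chr12:111270846-111271094, plus strand: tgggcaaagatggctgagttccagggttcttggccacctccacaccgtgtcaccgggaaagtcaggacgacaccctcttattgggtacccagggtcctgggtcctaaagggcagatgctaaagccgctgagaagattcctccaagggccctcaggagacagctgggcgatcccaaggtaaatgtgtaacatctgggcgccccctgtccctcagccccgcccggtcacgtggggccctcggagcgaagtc
Both strands of the 250 bases before each start were searched for GATA motifs (AGATAA or AGATAG, and TGATAA or TGATAG), forkhead motifs (TGTTTAC or TATTTAC), SOX motifs (AACAAT or ACAAAG) and the retinoic acid receptor motif (AGGTCA). Of the 7 start sites of the 6 genes, 1 held a GATA motif, against 26.5% of all 32851 promoters. That match, TGATAA, begins 179 bases before the first Dab2 start. No member promoter held a forkhead, SOX or retinoic acid receptor motif, which 5.76%, 24% and 14% of all promoters held. These letters describe the windows and say nothing of binding.

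Cubn was close to 0 in stem cells and became abundant in Sox1-FoxA2+ cells. Normalized counts (counts divided by the DESeq2 size factor of the library) were 9.95, 65.9 and 0 in D0 replicates 1, 2 and 3. At D2 they were 1151, 5647 and 1795 in Sox1-FoxA2+ cells, against 94.8, 72.9 and 0 in Sox1+FoxA2- cells, 28.5, 0 and 70.2 in Sox1-FoxA2- cells and 65.9, 436 and 257 in Sox1+FoxA2+ cells. All 3 Sox1-FoxA2+ libraries thus lay above the 9 others of that day. For 3.94% of all genes they lay above the Sox1+FoxA2- libraries, for 4.86% above those of double positive cells and for 5.71% above those of double negative cells. The share of genes above all 9 at once was not counted. In bulk libraries such as these, more cells of a type and more RNA per cell cannot be told apart. At D4 the Sox1-FoxA2+ libraries held 93420, 13840 and 51690, and those of Sox1+FoxA2- cells 202, 354 and 1115. At D6 the values were 60430, 31730 and 27450 against 684, 1183 and 551. The mean was highest in D4 Sox1-FoxA2+ cells, 52980 ± 39810 (SD, n = 3), and lowest at D0, 25.3 ± 35.5.

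Lrp2 was present in every condition and from D4 on had its highest means in Sox1-FoxA2+ cells and their progeny. The D0 libraries held 3915, 5915 and 4853 normalized counts. At D4 the Sox1-FoxA2+ libraries held 98270, 31610 and 54280 and the Sox1+FoxA2- libraries 25640, 9467 and 10170, without overlap. The D6 libraries of the same populations held 93900, 47210 and 23680 against 9745, 9411 and 6007, again without overlap. Sox1-FoxA2+ libraries lay above in this way for 6.14% of all genes at D4 and 6.97% at D6. Lrp2 had its highest mean in the D6 progeny of Sox1-FoxA2+ cells, 87570 ± 23490 (SD, n = 3), and its lowest in D6 Sox1-FoxA2- cells, 4149 ± 2267.

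Dab2, the clathrin adaptor, followed Cubn. At D0 it stood at 7.47, 861 and 8.27, with replicate 2 far above the others; that library also stood apart in Fabp3 and Amn. In Sox1-FoxA2+ cells it read 1872, 9989 and 3895 at D2, 52590, 26440 and 38640 at D4 and 50710, 54890 and 39470 at D6. Across the 9 Sox1+FoxA2- libraries of those days it stayed between 1223 and 2870 normalized counts. These ranges overlap at D2 and do not at D4 or D6. On those later days the Sox1-FoxA2+ libraries lay above the Sox1+FoxA2- libraries for 6.14% and 6.97% of all genes.

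Lrpap1, the receptor chaperone, was present in every library, at 4191, 1326 and 3816 in D0 cells. It reached 36090, 17120 and 26140 in D4 Sox1-FoxA2+ cells and 41610, 27480 and 24520 at D6, while the Sox1+FoxA2- libraries read 1443, 952 and 2798 at D4 and 801, 1084 and 1546 at D6. Fabp3, the fatty acid carrier, read 1774, 162 and 1573 at D0, 28830, 12780 and 17690 in D4 Sox1-FoxA2+ cells and 38830, 27360 and 43020 at D6. Its Sox1+FoxA2- libraries held 218, 108 and 569 at D4 and 699.5, 285 and 780.5 at D6. Neither gene's populations overlapped at D4 or D6, where the Sox1-FoxA2+ libraries lay above those of Sox1+FoxA2- cells for 6.14% and 6.97% of all genes.

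Amn, the membrane anchor of cubilin, did not show this pattern. It was low and scattered, with 0 counts in 6 of 57 libraries, and its highest mean was that of D0, 644 ± 607 (SD, n = 3), from libraries at 1214, 6.59 and 711. In D6 Sox1-FoxA2+ cells, where Cubn was near its peak, Amn read 75.3, 98.2 and 0. Compared per kilobase of exon, mean Cubn stood at 2670 normalized counts per kilobase in those cells and mean Amn at 31.4. On the same per-kilobase scale Fabp3 was the highest member in D6 Sox1-FoxA2+ cells, at 44200, followed by Lrpap1 at 7580, Dab2 at 6590 and Lrp2 at 3290.

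**Figure D1:**
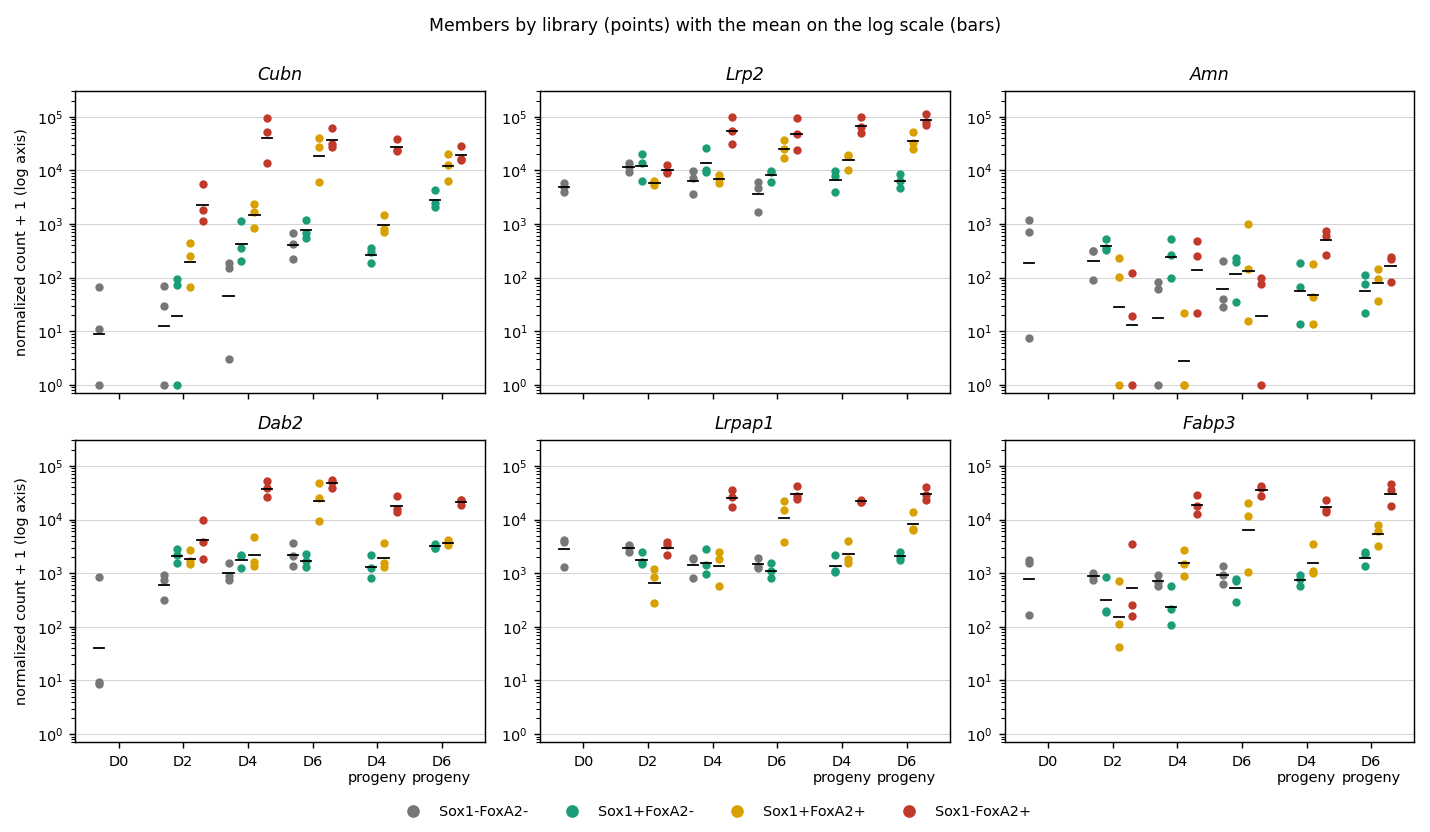
Normalized count plus 1 on a log axis for each of the 6 members, by day and arm along the x axis and by population in colour, with 1 point per library and a bar at the mean of the log values. At D4 and D6 the red points (Sox1-FoxA2+) stand above the Sox1+FoxA2- points for every member but Amn, as for 6.14% and 6.97% of all genes. The points of Amn spread from 0 to 1214 normalized counts.

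**Figure D2:**
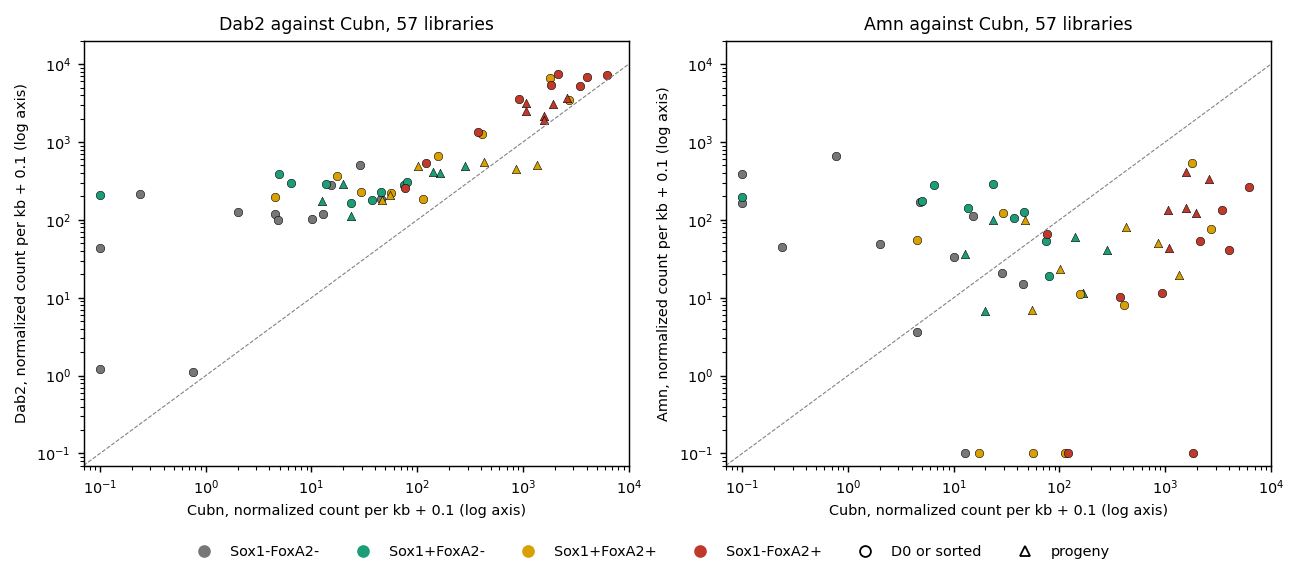
Dab2 (left) and Amn (right) against Cubn, as normalized counts per kilobase plus 0.1 on log axes, with 1 point for each of 57 libraries, coloured by population (circles for D0 and sorted cells, triangles for progeny). The dashed line marks equal levels. Dab2 rises with Cubn (r = 0.884 over 19 condition means), and Amn does not (r = -0.0762).

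Ordered by mean level, neighbouring conditions mostly did not differ beyond the spread of their 3 libraries. For Cubn, Dab2, Lrpap1 and Fabp3 the libraries of 17 of the 18 neighbouring pairs overlapped, and for Lrp2 and Amn all 18 did. Over the 19 condition means, on the log2(normalized count + 1) scale, Pearson's r was 0.94 between Lrpap1 and Fabp3, 0.914 between Lrp2 and Lrpap1 and 0.884 between Cubn and Dab2, and it lay between -0.0762 and 0.351 for Amn with the other 5. The points share libraries and scaling, so that r is a description.

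Among 29607 genes, those whose condition means followed Cubn most closely were Fgf10, 1010001N08Rik and Nxf7 (r = 0.928, 0.923 and 0.921). For Lrp2 they were Osbp and the laminins Lamb1 and Lama1 (0.924, 0.921 and 0.918), and for Dab2 Selenow and Mvb12b were among the 3 closest (0.925 and 0.921). Lrpap1 was followed by Tor1aip2, Epas1 and the lysosomal protease Lgmn (0.96, 0.958 and 0.956), and Fabp3 by Lgmn, the laminin Lamc1 and the hedgehog ligand Ihh (0.962, 0.951 and 0.941). For Amn they were Traf2, Slc7a6os and Slc39a14 (0.903, 0.789 and 0.774).

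At D2, when the populations first appear, the members did not separate them by the test. Genes were tested with edgeR's quasi-likelihood test and called at a Benjamini-Hochberg adjusted p under 0.05 over all genes tested. In Sox1-FoxA2+ against Sox1+FoxA2- cells 0 of 6 members were called, as were 0.00491% of all genes. In Sox1+FoxA2+ cells 0 of 6 were called against Sox1+FoxA2- (0.0% of all genes) and 0 against Sox1-FoxA2+ cells (0.0%). In Sox1-FoxA2+ against Sox1-FoxA2- cells 0 were called (0.0196%). At an unadjusted p under 0.05, 1031, 1530, 1731 and 1533 genes passed in these 4 comparisons. DESeq2 called 1, 0, 1 and 2 members there, and 346, 623, 767 and 596 of 29888 genes. Cubn had a log2 fold change of 5.73 (standard error 1.84, adjusted p = 0.915) between Sox1-FoxA2+ and Sox1+FoxA2- cells. Against Sox1-FoxA2- cells Dab2 differed by 3.02 (standard error 0.555, adjusted p = 0.104), and it was called without D2 Sox1-FoxA2+ replicate 1 (adjusted p = 0.0053). Foxa2 itself was not called in Sox1-FoxA2+ cells, at 3.68 (standard error 2.05, adjusted p = 0.959) against Sox1+FoxA2- and 6.21 (2.32, 0.657) against Sox1-FoxA2- cells. An absent call at D2 thus does not show equal levels.

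Relative to D0, Lrp2 rose by D2 in the Sox1-FoxA2+ population and in the double negative cells. The libraries read 9364, 8772 and 12720 and 11610, 13880 and 9413, all above the D0 libraries, as were those of 10.9% and 13.8% of all genes. The Sox1+FoxA2- and double positive cells of D2 were not tested against D0. Their Lrp2 libraries ran from 6324 to 19920 and from 5306 to 6377, against 3915 to 5915 at D0. The log2 fold change was 1.10 (standard error 0.298, adjusted p = 0.0344) in Sox1-FoxA2+ cells, where 1 of 6 members and 2.31% of all genes were called higher. It was 1.27 (standard error 0.299, adjusted p = 0.0196) in Sox1-FoxA2- cells, again with 1 of 6 members, against 1.31% of all genes. Both comparisons share the D0 libraries. Both calls were lost without replicate 1 (adjusted p = 0.461 and 0.477), and the second also without replicate 2 (0.0671). Without replicate 2, whose D0 library is high in Dab2, Dab2 was called in both (3.03e-06 and 4.11e-05). In Sox1-FoxA2+ cells Cubn differed from D0 by 6.79 (standard error 2.13, adjusted p = 0.107). With edgeR's default estimation of the spread in place of the robust one, Cubn and Dab2 were called there (adjusted p = 0.0376 and 0.0462) and Lrp2 was not (0.0543). With all 57 libraries in a single fit Lrp2 was called in neither population (0.251 and 0.283).

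At D4 the adaptor, the chaperone and the fatty acid carrier stood above their Sox1+FoxA2- levels in the Sox1-FoxA2+ population. Called higher were 3 of 6 members, against 0.205% of all genes. Dab2 was higher by 4.48 (standard error 0.475, adjusted p = 1.16e-05) on the log2 scale, Lrpap1 by 4.04 (0.554, 0.000847) and Fabp3 by 6.19 (0.562, 1.47e-06). Cubn had a log2 fold change of 6.72 (standard error 1.42, adjusted p = 0.195), and Lrp2 one of 2.01 (0.471, 0.0888). The 3 Sox1-FoxA2+ libraries also lay above those of Sox1+FoxA2- cells for Cubn, as for 6.14% of all genes. Cubn was called with the default estimation of the spread (adjusted p = 0.00371) and without Sox1-FoxA2- replicate 2 (0.0145). Lrp2 was called without Sox1+FoxA2- replicate 1, Sox1-FoxA2+ replicate 2 or Sox1-FoxA2- replicate 2 (adjusted p = 0.00198, 0.033 and 0.0327). Amn had a log2 fold change of -0.29 (standard error 2.05, adjusted p = 1).

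Against the double negative cells of D4, 4 of 6 members were called higher in Sox1-FoxA2+ cells, against 0.279% of all genes. They were Lrp2, by 3.17 (standard error 0.493, adjusted p = 0.0028) on the log2 scale, Dab2, by 5.19, Lrpap1, by 4.12, and Fabp3, by 4.75. Lrp2 was not called once double negative replicate 1 was left out (adjusted p = 0.0532). Cubn differed by 8.84 (standard error 1.56, adjusted p = 0.0838) and was called with the default estimation of the spread (0.00068) and without Sox1-FoxA2- replicate 2 (0.0281).

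The double positive cells of D4 stayed low. Their Cubn libraries read 845, 1703 and 2354, those of Dab2 1641, 1371 and 4814, and those of Lrp2 5837, 8052 and 6825. Against Sox1+FoxA2- cells 0 of 6 members were called by edgeR and 0.0% of all genes, while 1565 genes had an unadjusted p under 0.05. DESeq2 called 1 member and 398 of 32255 genes. Fabp3 was called there without Sox1+FoxA2- replicate 3 (adjusted p = 0.0376). Against Sox1-FoxA2+ cells 4 of 6 were called lower, against 0.414% of all genes. Lrp2 fell by 3.47 (standard error 0.5, adjusted p = 0.00124) on the log2 scale, Dab2 fell by 4.27, Lrpap1 fell by 4.26 and Fabp3 fell by 3.90. Cubn, at -5.37 (standard error 1.34, adjusted p = 0.203), was called with the default estimation of the spread (0.0143) and without Sox1-FoxA2- replicate 2 (0.0254).

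By D6 all members but Amn stood above their Sox1+FoxA2- levels in the Sox1-FoxA2+ population. Called higher were 5 of 6 members, against 1.0% of all genes. The log2 fold change was 5.83 (standard error 0.82, adjusted p = 0.00271) for Cubn, 2.95 (0.566, 0.00981) for Lrp2, 4.97 (0.623, 0.000247) for Dab2, 4.98 (0.564, 1.68e-05) for Lrpap1 and 6.12 (0.99, 0.0118) for Fabp3. Amn differed by -1.10 (standard error 2.05, adjusted p = 0.93). The median log2 fold change was 4.97 over the 6 members and -0.301 over all genes. Dab2 and Lrpap1 remained called whichever single library was left out. Cubn was not called without Sox1+FoxA2- replicate 3 (adjusted p = 0.0676). Lrp2 was not called without Sox1+FoxA2- replicate 2 or 3 or Sox1+FoxA2+ replicate 1 or 2 (0.0757 to 0.144), and Fabp3 was not without any one of the Sox1+FoxA2- libraries, Sox1-FoxA2+ replicate 1 or 2, or Sox1-FoxA2- replicate 1 (0.0518 to 0.137). The count fell to 2 of 6 with replicate 3 of the Sox1+FoxA2- cells left out.

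Cubn, Lrp2, Dab2, Lrpap1 and Fabp3 also stood above the double negative cells of D6, 5 of 6 against 0.653% of all genes, by 3.81 for Lrp2 to 6.52 for Cubn on the log2 scale. The D6 Sox1-FoxA2+ libraries enter both comparisons. Calls were lost for Cubn without Sox1-FoxA2- replicate 1 (adjusted p = 0.0632), for Lrp2 without Sox1+FoxA2+ replicate 2 (0.0543) and for Fabp3 without any one of 10 of the 12 libraries, all but Sox1+FoxA2+ replicates 1 and 3 (0.0547 to 0.254). Fabp3 was also not called with no filter on low counts (0.0694).

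The 3 libraries labelled D6 Sox1+FoxA2+, of which only replicate 2 stood out in Foxa2, differed widely in these transcripts. Replicates 1, 2 and 3 read 6093, 27010 and 40910 for Cubn, 9255, 48660 and 25320 for Dab2 and 17150, 24530 and 36690 for Lrp2. They read 3841, 14940 and 22210 for Lrpap1 and 1068, 11510 and 20400 for Fabp3. Replicate 1, in which Foxa2 was at 0, was the lowest for all 5. Replicate 3, in which Foxa2 was at 76.6, was the highest for Cubn, Lrp2, Lrpap1 and Fabp3, and replicate 2 was the highest for Dab2 alone. The summed parietal endoderm markers ran from 97450 to 683500 over these libraries, and their part in the members' levels was not tested. Against Sox1+FoxA2- cells 2 of 6 members were called higher in the libraries labelled Sox1+FoxA2+, Dab2 by 3.98 (standard error 0.594, adjusted p = 0.0102) on the log2 scale and Lrpap1 by 3.54 (0.527, 0.00432), against 0.0496% of all genes. Cubn differed by 4.87 (0.784, 0.0588), Fabp3 by 4.20 (0.903, 0.346) and Lrp2 by 1.54 (0.538, 1).

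These calls depended on single libraries and on the fit. With a replicate block 5 of 6 were called, with log2 fold changes of 4.97 for Cubn, 4.11 for Fabp3 and 1.59 for Lrp2. The labels do not say that libraries of one number belong together. Between these populations their deviations correlated at 0.112 to 0.234 among the genes of highest mean, but at -0.0576 to 0.0305 among the most variable. With the default estimation of the spread Cubn and Fabp3 were called (adjusted p = 0.000963 and 0.00628). Without Sox1+FoxA2+ replicate 1, Cubn and Fabp3 were called as well (1.87e-05 and 1.31e-10), and Cubn also without Sox1-FoxA2+ replicate 1 or Sox1-FoxA2- replicate 3 (0.0265 and 0.048). Dab2 was not called without Sox1+FoxA2+ replicate 3 or any one of the Sox1+FoxA2- libraries (0.0589 to 0.164), nor Lrpap1 without Sox1+FoxA2+ replicate 2 (0.274). With only the groups compared in the fit 0 of 6 members and 1 of 21427 genes were called (Dab2 0.0888, Lrpap1 0.136). With all 57 libraries in a single fit 23 of 29607 genes were called, and Dab2 was not (adjusted p = 0.103).

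Against Sox1-FoxA2+ cells of D6 0 of 6 members were called in the libraries labelled Sox1+FoxA2+ by edgeR, against 0.0909% of all genes in either direction. The log2 fold changes ran from -0.96 for Cubn to -1.93 for Fabp3 among the 5 members other than Amn. For Fabp3 and Lrpap1 all libraries labelled Sox1+FoxA2+ lay below those of Sox1-FoxA2+ cells, as for 4.63% of all genes. In that comparison 3432 genes had an unadjusted p under 0.05, DESeq2 called 0 members, and Lrp2 was called lower without Sox1-FoxA2+ replicate 3 (adjusted p = 0.049).

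**Figure D3:**
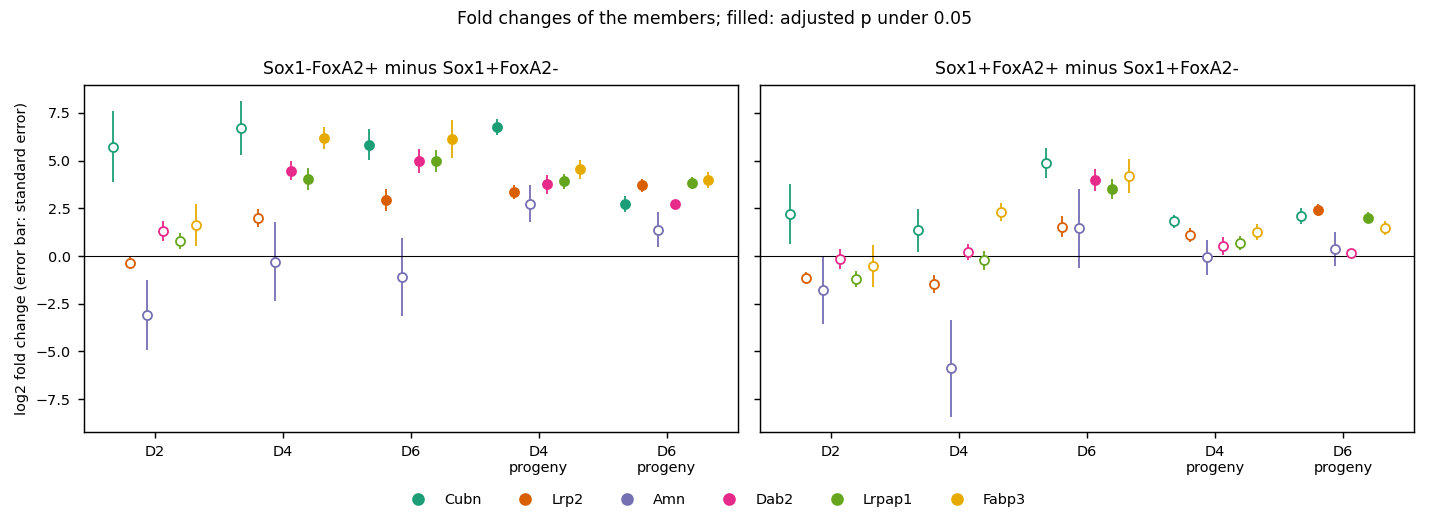
Log2 fold change with its standard error for each member in Sox1-FoxA2+ (left) and Sox1+FoxA2+ (right) against Sox1+FoxA2- cells, by day and arm, with filled points for adjusted p under 0.05 (edgeR). The filled points number 3, 5, 5 and 5 of 6 at D4, D6, D4 progeny and D6 progeny on the left and 0, 2, 0 and 2 on the right, and Amn is open throughout.

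Descendants of the sorted cells differed in Cubn, Lrp2, Dab2, Lrpap1 and Fabp3 as well. In the D4 progeny of Sox1-FoxA2+ cells Cubn read 23480, 38630 and 23640, against 349, 296 and 188 in the progeny of Sox1+FoxA2- cells, and Lrpap1 read 22880, 21260 and 21120 against 1048, 1077 and 2204. Called higher were 5 of 6 members, against 1.44% of all genes, and the 5 remained called whichever single library was left out. The log2 fold change was 6.75 (standard error 0.415, adjusted p = 1.16e-08) for Cubn, 3.35 (0.388, 6.29e-05) for Lrp2, 3.76 (0.512, 0.00128) for Dab2, 3.92 (0.409, 2.61e-05) for Lrpap1 and 4.55 (0.486, 8.33e-05) for Fabp3. Amn read 756, 609 and 261 against 186, 12.5 and 67.2, without overlap (above in 7.9% of all genes), with a log2 fold change of 2.75 (standard error 0.961, adjusted p = 0.225). With no filter on low counts Amn was called (adjusted p = 0.031), and with all 57 libraries in a single fit Dab2 was not (0.0917).

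The D4 progeny of double positive cells was far lower than that of Sox1-FoxA2+ cells. Cubn read 818, 1504 and 698 there, above the Sox1+FoxA2- progeny without overlap (as in 9.08% of all genes), and Dab2 read 1547, 3644 and 1311. Against the progeny of Sox1+FoxA2- cells 0 of 6 members were called by edgeR (0.00483% of all genes in either direction, 976 genes at an unadjusted p under 0.05), Cubn at 1.83 (standard error 0.337, adjusted p = 0.159). DESeq2 called 1 member and 86 of 31698 genes. With the replicate block 1 of 6 was called, Cubn, by 1.77 on the log2 scale, and it was called without Sox1+FoxA2+ progeny replicate 3 as well (adjusted p = 0.0466). Libraries of one number correlated here at 0.39 to 0.591 among the genes of highest mean and at 0.0593 to 0.0626 among the most variable. Against the progeny of Sox1-FoxA2+ cells 5 of 6 were called lower, against 0.676% of all genes, Cubn at -4.92 (standard error 0.38, adjusted p = 1.27e-06) and Lrp2 at -2.25 (0.37, 0.00403). With the block 4 of 6 were called, without Lrp2 (adjusted p = 0.0985). Dab2 was not called without Sox1+FoxA2+ progeny replicate 1 (0.0545). With all 57 libraries in a single fit 1 of 6 members and 17 of 29607 genes were called, and Cubn (0.177), Lrp2 (0.0984), Dab2 (0.369) and Fabp3 (0.44) were not.

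By D6 the Sox1+FoxA2- and Sox1+FoxA2+ progeny held more Cubn than at D4. The libraries read 2471, 4245 and 2109 in the Sox1+FoxA2- progeny, 20360, 12710 and 6418 in the Sox1+FoxA2+ progeny and 15910, 16100 and 28930 in the Sox1-FoxA2+ progeny. From D4 to D6, 1 of 6 members was called higher in the Sox1+FoxA2- progeny, Cubn, by 3.40 (standard error 0.439, adjusted p = 0.00586) on the log2 scale, against 0.0125% of all genes. In the Sox1+FoxA2+ progeny 1 of 6 was called higher, again Cubn, by 3.71 (0.442, 0.00228), against 0.0791% of all genes. In the Sox1-FoxA2+ progeny 0 of 6 members were called by edgeR, Cubn at -0.51 (0.397, 0.84), against 0.341% of all genes in either direction, with 1964 genes at an unadjusted p under 0.05 and 0 members called by DESeq2. The calls of Cubn were lost without replicate 1 (adjusted p = 0.195 and 0.134). Both were also lost with all 57 libraries in a single fit, where 0 of 6 members and 0 of 29607 genes were called in either progeny. Without replicate 2, Fabp3 and Lrpap1 were called in the Sox1+FoxA2+ progeny (3.95e-05 and 0.00062). The summed primitive endoderm factors of the Sox1+FoxA2- progeny ran from 3635 to 4217 at D4 and from 7590 to 10340 at D6, and their part in the change of Cubn was not tested.

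In D6 progeny 5 of 6 members were called higher in the Sox1-FoxA2+ arm than in that of Sox1+FoxA2- cells, against 3.59% of all genes, and the 5 remained called whichever single library was left out. With all 57 libraries in a single fit 3 of 6 were called, without Cubn (0.536) and Dab2 (0.202). Lrp2 read 69760, 78750 and 114200 against 6234, 8478 and 4661, with a log2 fold change of 3.70 (standard error 0.331, adjusted p = 1.06e-05). That of Cubn was 2.72 (0.425, 0.00202), of Dab2 2.73 (0.213, 4.38e-06), of Lrpap1 3.82 (0.325, 7.53e-06) and of Fabp3 3.98 (0.421, 0.000126), and Amn differed by 1.39 (0.908, 0.516). The median was 3.21 over the 6 members and -0.0407 over all genes.

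Lrp2 in the D6 double positive progeny read 52840, 32770 and 24620 and Lrpap1 13660, 6602 and 6467, both above every library of the Sox1+FoxA2- progeny. Cubn and Fabp3 lay above them as well, 4 of 6 members, as did 8.95% of all genes. Dab2 read 3748, 3306 and 4091 against 2915, 3565 and 2994, with overlap. Against the Sox1+FoxA2- progeny 2 of 6 members were called higher, Lrp2 by 2.44 (standard error 0.313, adjusted p = 0.00363) on the log2 scale and Lrpap1 by 2.01 (0.302, 0.0113), against 0.161% of all genes. Dab2 differed by 0.18 (0.2, 0.874). Lrpap1 was not called without Sox1+FoxA2- progeny replicate 1 or 3 (0.0691 and 0.0751), and Cubn, at 2.09 (0.415, 0.0941), was called without Sox1+FoxA2+ progeny replicate 3 (0.013). Against the Sox1-FoxA2+ progeny 4 of 6 were called lower, against 2.35% of all genes, among them Dab2 at -2.55 (standard error 0.211, adjusted p = 7.25e-05) and Lrp2 at -1.26 (0.302, 0.0254). Cubn, at -0.64 (0.4, 0.497), was not called. Lrp2 was not called without Sox1+FoxA2+ progeny replicate 2 or 3 or Sox1-FoxA2+ progeny replicate 3 (0.0556 to 0.114). With all 57 libraries in a single fit 0 of 6 members and 0 of 29607 genes were called against the Sox1+FoxA2- progeny (adjusted p = 0.707 for Lrp2 and 1 for Lrpap1). Against the Sox1-FoxA2+ progeny that fit called 0 of 6 members and 76 of 29607 genes.

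From D2 to D4 the chaperone rose within Sox1-FoxA2+ cells, and the adaptor did in some fits. There 2 of 6 members were called higher, Dab2 by 2.85 (standard error 0.546, adjusted p = 0.0461) on the log2 scale and Lrpap1 by 3.08 (0.334, 0.000193), against 0.629% of all genes. Cubn had a log2 fold change of 4.14 (0.893, 0.136), Lrp2 of 2.56 (0.521, 0.0599) and Fabp3 of 3.98 (1.17, 0.432), and the D4 libraries of all 5 lay above those of D2, as did those of 9.26% of all genes. From D4 to D6 0 of 6 were called by edgeR, against 0.0155% of all genes in either direction, with log2 fold changes from -0.48 for Cubn to 0.77 for Fabp3 among those 5 (851 genes at an unadjusted p under 0.05, 0 members with DESeq2). From D2 to D6 3 of 6 were called higher, Lrp2 by 2.35 (0.517, 0.0391), Dab2 by 3.06 (0.551, 0.013) and Lrpap1 by 3.23 (0.336, 2.34e-05), against 1.51% of all genes. With the default estimation of the spread 5 of 6 were called from D2 to D4 and 5 from D2 to D6.

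Single replicates and the libraries in the fit moved these calls over time. With all 57 libraries in a single fit or only the groups compared, Dab2 was not called from D2 to D4 (adjusted p = 0.466 and 0.0636), while Lrp2 was (0.0281 and 0.00396). With the single fit Dab2 was not called from D2 to D6 either (0.0994), while Fabp3 was (0.0111). From D2 to D4, Dab2 was not called without replicate 1 or 3 (adjusted p = 0.117 and 0.585), while Cubn was called without replicate 2 (0.000893) and Lrp2 and Fabp3 without replicate 3 (0.00952 and 6.3e-08). From D2 to D6, Dab2 was not called without replicate 3 (0.239), nor Lrp2 without replicate 1 or 2 (0.146 and 0.189), while Cubn was called without replicate 2 (0.00056) and Fabp3 without replicate 3 (9.33e-09).

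The other populations were compared from D2 to D6 only. In Sox1+FoxA2+ cells 3 of 6 members were called higher, Cubn by 6.39 (standard error 0.952, adjusted p = 0.043) on the log2 scale, Lrp2 by 1.87 (0.395, 0.043) and Dab2 by 3.65 (0.632, 0.0312), against 0.107% of all genes. Calls were lost for Cubn without replicate 2 or 3 (0.172 and 0.154), for Dab2 without replicate 2 (0.0677) and for Lrp2 without replicate 2 or 3 (0.129 and 0.572), whereas Fabp3 and Lrpap1 were called without replicate 1 (3.36e-10 and 6.67e-10). With only the groups compared 0 of 6 members and 3 of 17585 genes were called (adjusted p = 0.0648, 0.202 and 0.0648 for Cubn, Lrp2 and Dab2). Lrp2 was not called with all 57 in a single fit or the default estimation of the spread (0.0661 and 0.0979), nor Cubn and Dab2 with RLE size factors (0.0735 and 0.061). In Sox1+FoxA2- cells 0 of 6 members were called by edgeR, as were 0.0% of all genes, with 2538 genes at an unadjusted p under 0.05. DESeq2 called 1 member and 1296 of 32683 genes there, and Cubn had a log2 fold change of 3.62 (1.24, 0.356) with edgeR. In Sox1-FoxA2- cells 0 of 6 were called by edgeR, against 0.156% of all genes in either direction (1611 genes at an unadjusted p under 0.05, 1 member and 671 of 30545 genes with DESeq2). All 3 D6 libraries of these cells lay below those of D2 for Lrp2, at -1.58 (0.422, 0.308), and for Lrpap1, at -1.05 (0.358, 0.525), as for 6.35% of all genes. For Cubn, at 3.69 (1.69, 0.624), and for Dab2 they lay above those of D2, as for 9.23% of all genes. The member called there by DESeq2 was Dab2, higher by 1.83 (adjusted p = 0.0237).

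Between progeny and sorted Sox1-FoxA2+ cells of the same day edgeR called 0 of 6 members at D4, against 0.173% of all genes in either direction, and 0 of 6 at D6, against 0.121% (1532 and 2778 genes at an unadjusted p under 0.05, 0 and 0 members with DESeq2). Dab2 differed by -1.02 (standard error 0.481, adjusted p = 0.752) at D4 and -1.06 (0.394, 0.395) at D6. Whether the difference between Sox1-FoxA2+ and Sox1+FoxA2- cells itself changed from sorted to progeny was tested as an interaction. It called 0 of 6 members at D4 (0.0% of all genes, 1196 at an unadjusted p under 0.05, 0 members with DESeq2). At D6 it called 0 of 6 (0.0196% of all genes, 2850 at an unadjusted p under 0.05, 2 members and 1200 of 35163 genes with DESeq2). At D6 the interaction was -2.97 (standard error 0.879, adjusted p = 0.36) for Cubn and -2.12 (0.558, 0.224) for Dab2, and both were called with only the groups compared (0.0334 and 0.0196).

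Most other genes of the uptake route were not called where the members were. Between D6 Sox1-FoxA2+ and Sox1+FoxA2- cells, 0 of 11 tested genes of the LDL receptor family were called, 1 of 17 of the clathrin coat was higher, and 1 of 16 of the endosome and recycling list was. Of the list of other uptake receptors 0 of 12 were called, and of cytosolic lipid and retinoid carriers 0 of 8. Of 13 ligands and cargo 1 was higher, and of 12 receptor chaperones and sorting adaptors 3 were. The medians of these 7 lists ran from -1.56 to 0.73 on the log2 scale. Over all genes, 1.0% were called higher and 0.318% lower in that comparison.

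A motor and a chaperone of this route were among the genes called. Myo6, the motor that moves endocytic vesicles and binds Dab2, was higher by 2.92 (standard error 0.488, adjusted p = 0.00055) on the log2 scale at D6 and by 1.84 (0.26, 0.0004) in D6 progeny. Hsp90b1, a chaperone of the endoplasmic reticulum, was higher by 2.17 (0.405, 0.0021) and 1.01 (0.29, 0.0496). Slc9a3r1, a scaffold under the apical membrane, had a log2 fold change of -1.59 (0.382, 0.0239) in D6 progeny, where 3 of 12 were higher and 1 lower.

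Among ligands, Tcn2, which carries vitamin B12 in plasma, was higher by 2.31 (standard error 0.572, adjusted p = 0.0289) at D6 and 1.72 (0.221, 0.000201) in D6 progeny. Clu, a secreted chaperone taken up by megalin, was higher by 3.57 (0.459, 0.000626) in D6 progeny, 2 of 13 ligands in that comparison. Gif, the intrinsic factor, named after its values were seen, ran from 0 to 166 normalized counts in D6 Sox1-FoxA2+ cells. Of the list of other uptake receptors 2 of 12 genes were higher in D6 progeny. They were Stra6, the receptor for retinol-binding protein, by 3.47 (0.419, 0.000126) and Pdpn by 3.61 (0.548, 0.00151). Pdpn is a surface glycoprotein not known as an uptake receptor.

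In the clathrin coat Cltc, the heavy chain, was higher by 1.65 (standard error 0.423, adjusted p = 0.0446) at D6 and 0.91 (0.226, 0.023) in D6 progeny, where Ap2a2 and Epn2 were higher too, by 1.14 (0.217, 0.00386) and 1.23 (0.237, 0.00402), 3 of 17. Of the endosomal list the retromer subunit Vps26a was higher in D6 progeny, by 1.24 (0.218, 0.00214), and the chloride transporter Clcn5, named after its values were seen, at D6, by 2.42 (0.499, 0.00567), 1 of 16 each. Other relatives went the opposite way in D6 progeny. Lrp1, a receptor of the same family as Lrp2, stood at -2.48 (0.403, 0.00238), 1 of 11 lower. Fabp5, a fatty acid carrier like Fabp3, stood at -1.90 (0.361, 0.00376) and the retinoic acid carrier Crabp2 at -2.58 (0.545, 0.00792), 2 of 8 lower. Over all genes 3.59% were called higher and 3.32% lower in that comparison, and the medians of the 7 lists ran from -0.52 to 0.37.

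**Figure D4:**
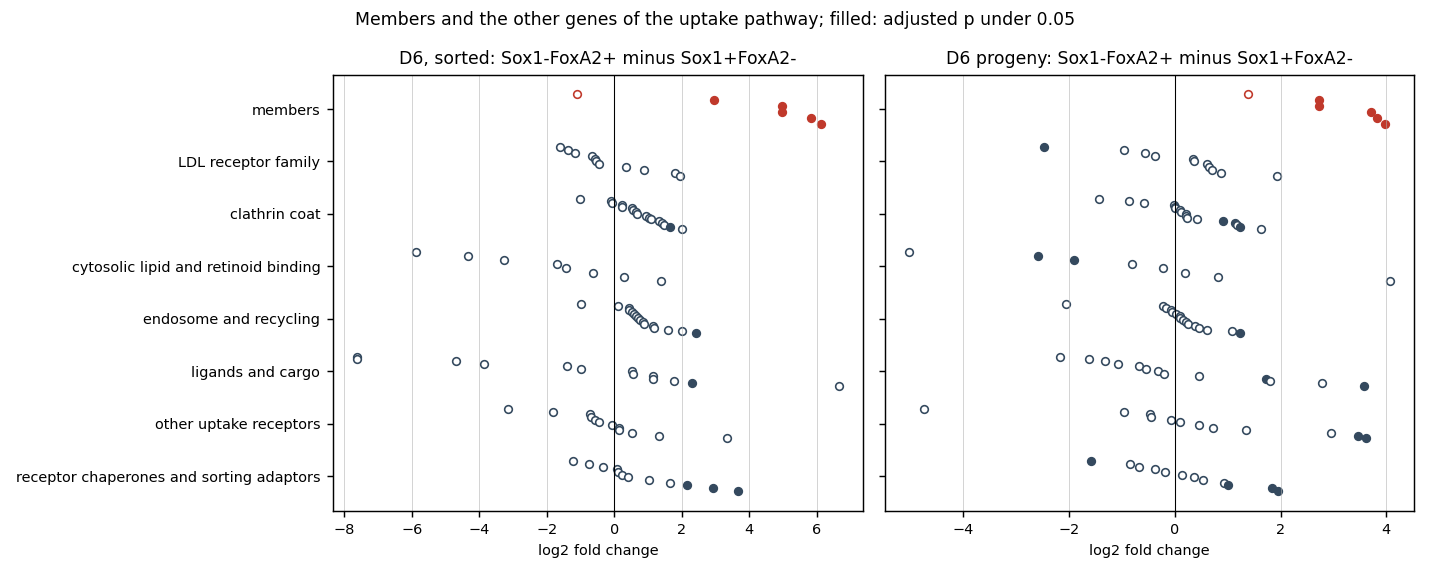
Log2 fold change between Sox1-FoxA2+ and Sox1+FoxA2- cells for the 6 members (red) and for each tested gene of 7 lists of the uptake route (dark), in D6 sorted cells (left) and D6 progeny (right), filled where adjusted p is under 0.05 (edgeR). The members other than Amn lie at 2.95 to 6.12 on the left and 2.72 to 3.98 on the right.

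Markers of cell types moved with the members. In D6 Sox1-FoxA2+ against Sox1+FoxA2- cells 6 of 10 parietal endoderm markers and 4 of 8 primitive endoderm factors were called higher, and 2 of 7 tested neural progenitor markers lower. In D6 progeny 8 of 10 parietal markers were higher and 1 lower, 8 of 8 primitive endoderm factors were higher and 4 of 7 neural markers lower. Of the visceral endoderm markers 1 of 9 tested was higher in each. The summed visceral list ran from 3651 to 9059 in D6 Sox1-FoxA2+ cells and from 960 to 1147 in Sox1+FoxA2- cells. Of kidney and intestine, which also carry cubilin and megalin, the 6 kidney markers summed to 271 to 1626 in D6 Sox1-FoxA2+ cells and 1252 to 1633 in Sox1+FoxA2- cells, and the 5 intestinal markers to 4.37 to 371 and 266 to 560.4, with none called at D6. The part of these cell types in the members' levels was not tested.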

How the data were processed

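Bulk RNA of 57 libraries from 19 conditions (13 sorted, 6 progeny; 3 replicates each) was measured with a SMART-Seq Stranded kit. The authors aligned reads with STAR, handled them with SAMtools and counted them per gene with featureCounts against GENCODE M21 (GRCm38), and deposited whole-number counts, 55450 genes in all. The versions of these tools are not given in the sources used here. A further 92 lines name no gene and hold 0 counts. In all, 80.6% of counts above 0 are even (73.6% to 88.1% per library), as when both mates of a pair are counted, and overlapping genes on opposite strands share reads if strand was ignored, which was not stated. Total counts ran from 10170632 to 81845651 (median 36694379), and 14458 to 27832 genes were detected. No libraries were identical.

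The 6 members and all gene lists were chosen with earlier results of these data known, and Dab2 is among the endoderm genes that the study lists for a principal component of these libraries. All 6 members, the list genes called in D6 cells or D6 progeny and the 3 genes most alike to each member in pattern were named, except items that are not reported here.

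Libraries of 1 day and arm (or 1 population over time) were fitted together with edgeR 4.0.16 (R 4.3.3; TMM, filterByExpr with minimum count 10 and minimum total 15, prior count 0.125, robust quasi-likelihood test), with Benjamini-Hochberg adjusted p under 0.05 as the call. The robust setting was not part of the written design and was chosen after the default fit had been seen. Normalized counts are counts divided by DESeq2 1.42.0 size factors over the 57 libraries, and most alike genes and correlations use log2(normalized count + 1). With 3 libraries a side an exact permutation test of a single gene cannot go below p = 0.1, so none was used. On simulated data for the D6 contrast of the Sox1-FoxA2+ and Sox1+FoxA2- populations (24203 genes, 100 changed at each size), 22% of changes of 2 on the log2 scale and 69% of changes of 4 were recovered, with 0 in the wrong direction. For D6 progeny (21069 genes) these were 73% and 96%, with 0 in the wrong direction. The changed genes were drawn only from those with a mean level above the median, so that these shares do not cover lower genes. Calls among the unchanged genes are not given here.

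Replicate numbers were checked for pairing by the correlation of deviations from group means, over 5000 genes. Among the genes of highest mean, 19 of 67 pairs of groups had all 3 correlations above 0.1, including the D4 progeny and most D6 comparisons, with r from -0.413 to 0.596. Among the most variable genes 0 of 67 did (-0.102 to 0.16). Alternatives were DESeq2, RLE size factors, no filter, a replicate block, other sets of libraries, single libraries left out and, chosen after seeing the data, default estimation of the spread and halved counts.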

Additional observations from a re-analysis of the deposited data

Results flagged for a closer look

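Some members differed in opposite directions on different days or in different populations, with the 3 libraries of each side not overlapping in either case. In the comparisons named here the libraries lay apart in the stated direction for 4.21% to 10.8% of all genes. All 6 members were searched over many comparisons, and how often other genes do the same was not counted. None of these differences was itself tested, and the comparisons share libraries in part. Amn between Sox1-FoxA2+ and Sox1+FoxA2- cells had a log2 fold change of 2.75 in D4 progeny against -3.09 at D2. Lrp2 between Sox1+FoxA2+ and Sox1+FoxA2- cells had one of -1.45 at D4, against 1.54 at D6, while in the progeny it was 1.11 at D4 and 2.44 at D6. Lrpap1 between the same populations had one of 3.54 at D6 and 2.01 in D6 progeny against -1.19 at D2. From D2 to D6, Lrp2 changed by 2.35 in Sox1-FoxA2+ cells and 1.87 in double positive cells against -1.58 in double negative cells. Over the same days Lrpap1 changed by 3.23 and 3.87 against -1.05. Of these values, those of Lrp2 in D6 progeny, of Lrpap1 at D6 and in D6 progeny, of Lrp2 from D2 to D6 in both FoxA2+ populations and of Lrpap1 over those days in Sox1-FoxA2+ cells passed the adjusted threshold of their own comparison, and the negative ones did not.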

How the results depend on the processing

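Of all 198 member log2 fold changes, 38 changed sign with some library or replicate number left out, 0 of the 56 called and 38 of the 142 not called. The 100 picked for the text were followed through every alternative, and 1 changed sign, that of Amn between D4 Sox1-FoxA2+ and Sox1+FoxA2- cells, which became 0.50 when Sox1+FoxA2- replicate 2 was left out and 0.33 for replicate 2 of the Sox1-FoxA2+ cells (range -1.15 to 0.50 over single libraries left out). The counts of members called out of 6 moved as follows, and the cause was not tested. The number of all genes called differed with DESeq2 and with the libraries in the fit as well. With DESeq2 they became 1 for D2 Sox1-FoxA2+ against Sox1+FoxA2-, D2 Sox1+FoxA2+ against Sox1-FoxA2+, D4 Sox1+FoxA2+ against Sox1+FoxA2-, D4 progeny Sox1+FoxA2+ against Sox1+FoxA2-, Sox1+FoxA2- D6 against D2 and Sox1-FoxA2- D6 against D2, 2 for D2 Sox1-FoxA2+ against Sox1-FoxA2-, progeny Sox1+FoxA2+ D6 against D4 and the D6 interaction, 3 for D2 Sox1-FoxA2+ against D0, 4 for D6 Sox1+FoxA2+ against Sox1+FoxA2- and D6 progeny Sox1+FoxA2+ against Sox1+FoxA2-, 5 for D4 Sox1-FoxA2+ against Sox1+FoxA2-, Sox1-FoxA2+ D4 against D2, Sox1-FoxA2+ D6 against D2 and Sox1+FoxA2+ D6 against D2. With no filter on low counts they became 1 for D2 Sox1-FoxA2+ against Sox1+FoxA2- and D2 Sox1+FoxA2+ against Sox1+FoxA2-, 2 for D2 Sox1-FoxA2+ against Sox1-FoxA2-, D4 Sox1+FoxA2+ against Sox1+FoxA2-, D6 Sox1+FoxA2+ against Sox1-FoxA2+ and Sox1-FoxA2- D6 against D2, 3 for D2 Sox1+FoxA2+ against Sox1-FoxA2+, D4 progeny Sox1+FoxA2+ against Sox1+FoxA2-, D2 Sox1-FoxA2+ against D0, progeny Sox1+FoxA2- D6 against D4 and the D6 interaction, 4 for D6 Sox1+FoxA2+ against Sox1+FoxA2-, D6 progeny Sox1+FoxA2+ against Sox1+FoxA2- and progeny Sox1+FoxA2+ D6 against D4, 5 for D4 Sox1-FoxA2+ against Sox1+FoxA2-. With all 57 libraries in a single fit they became 0 for D6 progeny Sox1+FoxA2+ against Sox1+FoxA2-, D6 progeny Sox1+FoxA2+ against Sox1-FoxA2+, D2 Sox1-FoxA2- against D0, progeny Sox1+FoxA2- D6 against D4 and progeny Sox1+FoxA2+ D6 against D4, 1 for D6 Sox1+FoxA2+ against Sox1+FoxA2- and D4 progeny Sox1+FoxA2+ against Sox1-FoxA2+, 2 for D2 Sox1-FoxA2+ against D0, 3 for D6 progeny Sox1-FoxA2+ against Sox1+FoxA2-. With RLE size factors the count became 1 for Sox1+FoxA2+ D6 against D2. With only the groups compared they became 0 for D6 Sox1+FoxA2+ against Sox1+FoxA2- and Sox1+FoxA2+ D6 against D2, 2 for D2 Sox1-FoxA2+ against D0 and the D6 interaction. With the default estimation of the spread they became 2 for D2 Sox1-FoxA2+ against D0 and progeny Sox1+FoxA2+ D6 against D4, 4 for D6 Sox1+FoxA2+ against Sox1+FoxA2-, 5 for Sox1-FoxA2+ D4 against D2 and Sox1-FoxA2+ D6 against D2. With the replicate block they became 1 for D4 progeny Sox1+FoxA2+ against Sox1+FoxA2-, Sox1-FoxA2+ D4 against D2 and Sox1-FoxA2+ D6 against D2, 4 for D6 Sox1+FoxA2+ against Sox1-FoxA2+, 5 for D6 Sox1+FoxA2+ against Sox1+FoxA2- and Sox1+FoxA2+ D6 against D2, and the block moved no other count by over 1.5 times. Where its groups do not pair by number, the change says nothing of the effect. Halved counts moved 0 of 33 counts.

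Leaving out 1 library or 1 replicate number gave 0 to 1 for D2 Sox1-FoxA2+ against Sox1-FoxA2-, D2 Sox1-FoxA2- against D0, D4 Sox1+FoxA2+ against Sox1+FoxA2-, D4 progeny Sox1+FoxA2+ against Sox1+FoxA2-, D6 Sox1+FoxA2+ against Sox1-FoxA2+ and progeny Sox1+FoxA2- D6 against D4, 0 to 2 for D2 Sox1-FoxA2+ against D0, 0 to 3 for progeny Sox1+FoxA2+ D6 against D4, 0 to 5 for Sox1+FoxA2+ D6 against D2, 1 to 3 for D6 progeny Sox1+FoxA2+ against Sox1+FoxA2- and Sox1-FoxA2+ D4 against D2, 1 to 4 for D6 Sox1+FoxA2+ against Sox1+FoxA2-, 2 to 3 for Sox1-FoxA2+ D6 against D2, 2 to 5 for D6 Sox1-FoxA2+ against Sox1+FoxA2-, 3 to 4 for D6 progeny Sox1+FoxA2+ against Sox1-FoxA2+, 3 to 5 for D4 Sox1-FoxA2+ against Sox1+FoxA2-, D4 Sox1-FoxA2+ against Sox1-FoxA2- and D6 Sox1-FoxA2+ against Sox1-FoxA2-, 4 to 5 for D4 Sox1+FoxA2+ against Sox1-FoxA2+ and D4 progeny Sox1+FoxA2+ against Sox1-FoxA2+, 5 to 5 for D4 progeny Sox1-FoxA2+ against Sox1+FoxA2- and D6 progeny Sox1-FoxA2+ against Sox1+FoxA2-, and 0 throughout in the other 11 comparisons. The genes most alike to each member changed with counts scaled by TMM, for Cubn to Slc39a8, Fgf10 and Gata4. Amn, at 0 in 6 libraries, had the most libraries at 0 of all members, and the part of depth in this was not tested.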
